A study of Homo sapiens with 12 samples.

Results

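The comparison described here is that of DU145 control cells grown as tumor spheres against the same cells in adherent culture. DU145 is an epithelial human cell line from a prostate cancer. The members were chosen by their labels, as the 3 tumor sphere and 3 adherent libraries of cells with a control hairpin (shCtrl), so that 6 of the 12 RNA-seq libraries of the series entered. The shCtrl cells carried a stably integrated lentiviral non-targeting short hairpin RNA after puromycin selection. The other 6 libraries were from cells with a targeting hairpin, labelled shSigma (which of the hairpins used in the study is not stated), adherent or as tumor spheres, and are used only in the closing comparison. Adherent cells grew on plastic in RPMI 1640 with serum. Spheres were seeded at low density on non-adhesive plates in serum-free DMEM-F12 with B-27, insulin, FGF2 and EGF. Attachment, medium, serum, growth factors, cell density and the preparation of the cells therefore changed together, so that their parts in any difference cannot be told apart. A preparation batch of each culture cannot be told apart from the culture either. RNA is from whole cultures, and a change in the share of a kind of cell cannot be told apart from a change in RNA per cell.

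Tumor spheres are clusters that grow without a surface to attach to, and the assay is used to select cells with stem-like and tumor-initiating properties. Attached cells on plastic spread, form stress fibres and send signals through integrins and YAP/TEAD, whereas cells in a cluster build junctions with each other through E-cadherin, claudins and desmosomes. ZEB factors repress those junction genes and GRHL2 and ELF3 activate them, which is why the balance is read as a place on the axis from mesenchymal to epithelial.

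Values are CPM, counts scaled by edgeR's cpm function to the TMM-adjusted size of each library. They are listed in the order of replicate 1 to 3, a number whose meaning beyond the label is not stated. The libraries held 23668070 to 26957777 counts in adherent and 16472722 to 19164645 counts in tumor sphere cells. Replicates differed by more than counting noise, with a chi-square per gene of 5.69 to 43.9, where counting alone gives about 1. The cells matched their label, with the epithelial KRT8, KRT18 and EPCAM high in every library and KLK2 and KLK3, kallikreins of the differentiated prostate, at no more than 1 count in total in each group. Markers of other cell types were few. The summed CPM of 6 fibroblast markers was 3.98 to 8.34 in adherent and 19.6 to 25.5 in sphere libraries, nearly all of it COL1A1, while DCN and LUM had 6 and 0 counts in spheres. For 4 endothelial markers the sums were 0.13 to 0.52 CPM in adherent and 2.35 to 2.88 CPM in sphere libraries. In spheres most of it was KDR, followed by VWF with 24 counts, while PECAM1 and CDH5 had 3 counts each. The sums in adherent and sphere libraries were 0.35 to 0.48 and 0.12 to 0.61 CPM for 4 immune markers. For 6 neuroendocrine markers they were 2.81 to 3.77 and 3.59 to 4.22 CPM. The part of these markers in the results was not tested.

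Many genes differed between the cultures. Of 13800 genes with enough counts to test, 3781 (27.4%) were higher and 3623 (26.3%) lower in spheres at an adjusted p under 0.05. An absolute log2 fold change over 1, that is more than 2-fold, was also passed by 1496 higher (10.8%) and 684 lower genes (4.96%). The larger changes were thus mostly gains, and 46 of the genes that rose more than 2-fold had no more than 3 counts in all adherent libraries together, while 3 of those that fell had so few in spheres. The median over all genes tested was 0.04 on the log2 scale. Counts for gene lists below are at an adjusted p under 0.05, to be read against 27.4% and 26.3%, unless they are given as more than 2-fold, where 10.8% and 4.96% apply.

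Fold changes varied with base composition. In the fifth of genes with the lowest transcript GC content the median log2 fold change was -0.16, with 15.1% of genes higher and 42.3% lower. In the fifth with the highest GC content it was 0.49, with 44.4% higher and 5.60% lower. Replicates also differed along this axis, most of all adherent replicates 1 and 3, in which GC-rich against GC-poor genes deviated from the group mean by -0.42 and 0.41 on the log2 scale. A fit with an offset for GC content in each library was chosen after the data were seen. It called 1089 higher and 697 lower genes by more than 2-fold, and 1579 of the 2180 were called both ways. At an adjusted p under 0.05 alone it called 4203 of the 13800 genes tested higher and 3974 lower. List counts with GC offsets are to be read against these numbers instead. An effect of GC content in the libraries and an effect of culture on GC-rich genes cannot be told apart, and values with GC offsets are given where they ended or added a call of a named gene, moved its fold change by over 1.5 times, or moved a count of list members by 1.5 times or more.

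A group of genes was close to silent in adherent cells and plainly transcribed in spheres. FGL1, a secreted protein of liver, had 1 count in all adherent libraries together and 164, 176 and 149 CPM in the sphere libraries, a ratio of 12137 (95% counting interval 2178 to 479391). PLN (ENSG00000198523, chromosome 6, 118548296 to 118561716), the small inhibitor of the calcium pump SERCA, had 2 counts and then 133, 141 and 143 CPM, a ratio of 5189 (95% counting interval 1437 to 42849). Each of the sphere libraries lay far above every adherent library. SFTPB, a surfactant protein of lung, was at 0.386, 0.255 and 0.0794 CPM in the adherent and 569, 468 and 518 CPM in the tumor sphere libraries. FGG, the fibrinogen gamma chain, had 3 adherent counts and was at 68.3, 78.4 and 73.9 CPM in spheres, a ratio of 1831 (95% counting interval 627 to 8879). SFTPB and FGG are best known as secreted products of lung and liver. CEACAM6, an adhesion molecule of glandular epithelium and carcinoma, was at 0.193, 0.0851 and 0.0794 CPM attached and 123, 137 and 123 CPM in spheres. Its relative CEACAM5 had 1 count in adherent libraries and 34.02, 35.8 and 33.01 CPM in spheres. The sequences of this family are similar and reads may be shared between them. Further genes had 0 counts in all adherent libraries, so that only a bound can be given against a floor of 3 counts over the group. NTS, the neuropeptide neurotensin, was at 24.3, 30.2 and 18.7 CPM in spheres and at least 602-fold higher. The transcription factor SOX21 was at 12.9, 14.6 and 11.4 CPM and at least 322-fold higher. AGR2, a disulfide isomerase of mucus-secreting cells, was at 5.83, 6.55 and 6.29 CPM and at least 155-fold higher. CLDN2, a pore-forming claudin, was at 8.12, 8.10 and 5.17 CPM and at least 175-fold higher. By edgeR's test the genes named here that passed had an adjusted p of at most 4.74e-05.

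Losses of this size were rarer. MARCHF4 (ENSG00000144583, chromosome 2, 216257865 to 216372483), a membrane ubiquitin ligase, was at 15.3, 17.9 and 21.5 CPM in adherent libraries and had 2 counts in all sphere libraries, a ratio of 498 (95% counting interval 138 to 4115). ADAM12, a membrane metalloprotease, was at 6.91, 8.77 and 8.18 CPM in the adherent and 0.294, 0.166 and 0.253 CPM in the tumor sphere libraries. ID2, an inhibitor of basic helix-loop-helix factors, was at 34.6, 31.3 and 30.2 CPM attached and 1.71, 1.33 and 0.862 CPM in spheres. For each of them every sphere library lay below every adherent library by more than 10-fold. NAV3, a microtubule-associated protein, was at 11.3, 11.2 and 9.65 CPM in adherent and 0.235, 0.277 and 0.760 CPM in sphere libraries. The protease inhibitor SERPINB7 was at 5.91, 5.24 and 5.28 CPM in adherent and 0.177, 0.333 and 0.355 CPM in sphere cells. CAV1, the scaffold of caveolae, went from 109, 103 and 98.04 CPM to 7.18, 6.88 and 9.43 CPM (log2 fold change -3.71 ± 0.13, SE). The surfactant-associated pseudogene SFTA1P was at 95.8, 72.2 and 70.3 CPM in the adherent and 5.94, 6.10 and 6.79 CPM in the tumor sphere libraries. The carbonic anhydrase-related CA8 was at 6.22, 5.53 and 5.24 CPM attached and 0.589, 0.444 and 0.456 CPM in spheres. SFTA1P therefore moved opposite to SFTPB. Among genes of this group that passed, adjusted p reached at most 1.17e-05.

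Among genes that changed by more than 2-fold, the largest losses in CPM included TM4SF1, a tetraspanin-like surface protein, at 2182, 1933 and 1773 CPM in the adherent and 680.1, 796 and 802 CPM in the tumor sphere libraries. PLAU, the urokinase protease, was at 1285, 1299.5 and 1268 CPM attached and 409, 411 and 376 CPM in spheres. CRIM1, a membrane protein that binds growth factors, was at 836, 928 and 896 CPM in adherent and 215, 196 and 198 CPM in sphere libraries. In each of the 3 genes the groups were apart. The largest gains among such genes included TRAM1, of the translocation channel of the endoplasmic reticulum, at 596, 553 and 533 CPM in adherent and 1773, 1814 and 1830.2 CPM in sphere cells. FTH1, the ferritin heavy chain, was at 979, 864 and 823 CPM in the adherent and 1861, 2185 and 1987 CPM in the tumor sphere libraries, although its many pseudogenes can share its reads. PSAP, the precursor of lysosomal saposins, was at 1019.6, 1069 and 1198 CPM attached and 2214, 2138 and 2297 CPM in spheres. MALAT1, a nuclear non-coding RNA, was at 2149, 3193 and 2341 CPM in adherent and 4547, 7350.1 and 4314 CPM in sphere libraries, with a wide spread in both groups. Adjusted p did not exceed 0.00987 in those that passed.

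**Figure D1:**
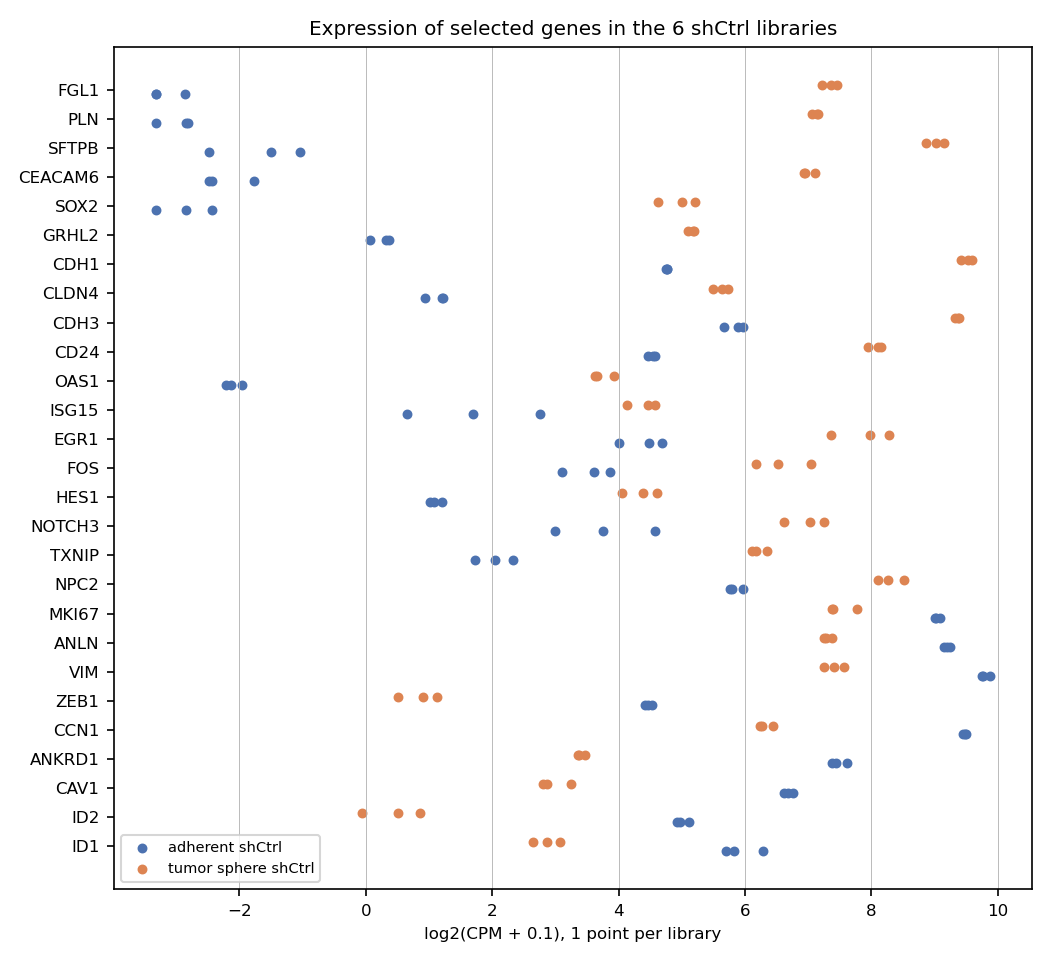
Level of named genes in each shCtrl library, as log2 of CPM plus 0.1, with adherent and tumor sphere libraries in different colours. For CDH1, with 26.96 CPM in adherent replicate 1 and 736 CPM in sphere replicate 1, and for VIM, with 941 and 153 CPM, the 3 sphere points lie apart from the 3 adherent points.

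Most epithelial genes tested rose in spheres. Of 37 epithelial genes tested, 28 were higher and 4 lower, 22 and 1 of them by more than 2-fold, and the median log2 fold change was 1.11 against 0.04 over all genes and 1.18 with GC offsets. CDH1 (ENSG00000039068, chromosome 16, 68737292 to 68835537), encoding E-cadherin, the adhesion molecule of adherens junctions, was at 26.96, 26.9 and 27.1 CPM in the adherent and 736, 681 and 775 CPM in the tumor sphere libraries (log2 fold change 4.76 ± 0.08, SE). The adherent libraries differed by less than 1 CPM, and every sphere library was more than 20-fold above them. CDH3, which encodes P-cadherin, went from 50.6, 59.3 and 62.8 CPM to 669, 637 and 664 CPM. JUP, the plakoglobin that links cadherins to the cytoskeleton, was at 18.2, 29.8 and 43.7 CPM attached and 168, 126 and 139 CPM in spheres. In JUP the adherent replicates were themselves more than 2-fold apart, lowest in replicate 1 and highest in replicate 3. Of 9 epithelial regulators tested, 6 were higher and KLF5 was lower (-0.60 on the log2 scale), with 2 lower with GC offsets. GRHL2, a grainyhead factor that activates E-cadherin and claudin genes, was at 1.20, 1.15 and 0.953 CPM in adherent and 36.6, 36.2 and 33.97 CPM in sphere libraries (log2 fold change 5.01 ± 0.12). ELF3, an epithelial ETS factor, went from 5.87, 7.32 and 8.77 CPM to 64.5, 60.6 and 65.3 CPM, and ESRP1, the epithelial splicing regulator, from 79.8, 74.96 and 72.8 CPM to 162, 169 and 153 CPM. Among tight junction genes CLDN4 was at 1.82, 2.21 and 2.22 CPM in adherent and 49.8, 53.1 and 45.1 CPM in sphere cells. CLDN7 was at 48.9, 49.97 and 58.1 CPM in the adherent and 203, 208 and 208 CPM in the tumor sphere libraries. CRB3, an apical polarity protein, was at 3.98, 6.77 and 8.53 CPM attached and 24.8, 17.7 and 21.9 CPM in spheres. CLDN1 went the other way, at 307, 303 and 281 CPM in adherent and 115, 113 and 122 CPM in sphere libraries (log2 fold change -1.35 ± 0.06), and was the epithelial gene that fell by more than 2-fold. Of the surface proteases, ST14 (matriptase) was at 6.41, 8.05 and 12.5 CPM in adherent and 173, 131 and 172 CPM in sphere cells, a log2 fold change of 4.15 (3.55 with GC offsets). PRSS8 (prostasin), which acts with it, was at 0.232, 0.213 and 0.397 CPM in the adherent and 6.59, 5.33 and 5.68 CPM in the tumor sphere libraries, a change of 4.35 (3.74). EPCAM, an adhesion molecule present from the start, went from 266, 229 and 214 CPM to 581, 666 and 602 CPM. DSG2, a desmosomal cadherin and the list member with the most counts, did not pass the test, at 544, 524 and 503 CPM attached and 514, 484 and 509 CPM in spheres (adjusted p = 0.425). Adjusted p was at most 0.00186 for the genes named here that passed. CLDN7 overlaps ELP5 and CRB3 overlaps DENND1C and SLC25A23 on the opposite strand, and the use of strand in the counting is not stated, so those counts are less certain.

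The promoters of CLDN7 and CRB3 are shown because the ZEB factors described next are known to bind the E-box CAGGTG. RefSeq promoters (GRCh38.p14, 250 bases before to 50 after the start) held CAGGTG on either strand in 24.1% of 27305 genes and in 15 of 27 epithelial genes (55.6%) with an entry. The stretches with the matches are given 5′ to 3′ on the strand of the gene, with matches in capitals. CLDN7 has matches 174, 135, 20 and 9 bases upstream of the start of the second of 2 entries (chr17:7262479-7262660, minus strand). CRB3 has 5 matches, 228, 208, 147, 89 and 60 bases upstream (chr19:6464035-6464224, plus strand). A match is a stretch of letters and does not show binding.
CLDN7: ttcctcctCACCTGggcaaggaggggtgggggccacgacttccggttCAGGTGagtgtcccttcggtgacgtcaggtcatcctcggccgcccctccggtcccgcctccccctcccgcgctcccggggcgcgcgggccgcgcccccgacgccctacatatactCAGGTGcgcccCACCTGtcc
CRB3: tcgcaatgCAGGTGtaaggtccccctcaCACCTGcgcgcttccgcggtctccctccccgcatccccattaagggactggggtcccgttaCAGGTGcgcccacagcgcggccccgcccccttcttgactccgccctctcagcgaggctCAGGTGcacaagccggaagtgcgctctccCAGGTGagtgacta

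Most keratin and S100 genes tested were higher. The keratin list also held LCN2, which is not a keratin and is given below. Of 7 genes tested from the list, 5 were higher and the other 2 did not pass. With GC offsets 4 were higher and 2 lower. For the 5 luminal keratins among them, 3 were higher, and with GC offsets 2 were higher and 2 lower. Of the simple keratins that form the filaments of glandular cells, KRT8 was at 203, 228 and 275 CPM in the adherent and 431, 359.5 and 368 CPM in the tumor sphere libraries. KRT19 was at 64.1, 90.8 and 125 CPM attached and 210.5, 184 and 203 CPM in spheres. KRT18, the partner of KRT8, was at 331, 309 and 328 CPM in adherent and 402, 405 and 373 CPM in sphere libraries (log2 fold change 0.29 ± 0.06), and its call was lost with GC offsets (0.06) and without sphere replicate 1. KRT7 was at 522, 636 and 774 CPM in adherent and 621, 549 and 561 CPM in sphere cells, which did not pass the test (adjusted p = 0.367) and became a call of -0.76 with GC offsets and a call lower without adherent replicate 1. KRT8 and KRT18 overlap each other, and KRT7 overlaps KRT86. KRT15, a keratin of basal and progenitor cells, was at 1.24, 1.32 and 1.71 CPM in the adherent and 18.4, 17.03 and 16.02 CPM in the tumor sphere libraries. Its sphere libraries were all more than 9-fold above the adherent ones. S100A14, a calcium-binding protein of epithelia, was at 0.579, 0.341 and 0.278 CPM attached and 9.12, 10.6 and 7.45 CPM in spheres. S100A2, of basal cells, was at 8.54, 6.56 and 7.46 CPM in adherent and 25.3, 29.5 and 29.4 CPM in sphere libraries. LCN2, the secreted iron-carrier protein lipocalin, was at 0.850, 0.724 and 1.39 CPM in adherent and 9.77, 8.93 and 9.68 CPM in sphere cells. Of 8 S100 genes tested, 6 were higher and the other 2 did not pass (1 lower with GC offsets), with a median of 1.07. By edgeR's test the genes named here that passed had an adjusted p of at most 0.00603.

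Of 5 repressors of epithelial genes tested, 3 fell and SNAI1 and TWIST2 did not pass (adjusted p = 0.998 and 0.984). ZEB1 (ENSG00000148516, chromosome 10, 31318495 to 31529814) was at 22.9, 21.4 and 22.1 CPM in the adherent and 1.77, 1.33 and 2.08 CPM in the tumor sphere libraries (log2 fold change -3.67 ± 0.16, SE). ZEB2 was at 3.09, 2.51 and 2.42 CPM attached and 0.177, 0.277 and 0.304 CPM in spheres (log2 fold change -3.36 ± 0.27). SNAI2 was at 0.734, 0.724 and 0.675 CPM in adherent and 0.0589, 0.277 and 0.0507 CPM in sphere libraries. All 3 were lower in every sphere library than in any adherent one. VIM (ENSG00000026025, chromosome 10, 17228241 to 17237593), vimentin, the intermediate filament of mesenchymal cells, went from 941, 858 and 865 CPM to 153, 170.3 and 189.5 CPM (log2 fold change -2.38 ± 0.09). TGFBI, a secreted adhesion protein, was at 147, 141 and 141 CPM in adherent and 26.02, 27.5 and 27.4 CPM in sphere cells. LOXL2, which cross-links collagen, was at 287, 362 and 452 CPM in the adherent and 74.6, 64.5 and 105 CPM in the tumor sphere libraries. The list did not move one way. Of 19 mesenchymal genes tested, 5 were higher and 8 lower, 4 and 7 by more than 2-fold, with a median of -0.14, and without adherent replicate 2 the number higher was 3. The exceptions were mostly collagens. COL6A1, of the microfibrils around cells, was at 17.9, 23.9 and 39.7 CPM attached and 101, 67.01 and 97.1 CPM in spheres. COL1A1 was at 3.24, 4.68 and 7.78 CPM in adherent and 24.5, 18.8 and 25.05 CPM in sphere libraries. Both were lowest in adherent replicate 1 and highest in adherent replicate 3, and had log2 fold changes of 1.02 and 1.58 with GC offsets against 1.70 and 2.12 without. COL1A1 is also the fibroblast marker whose level was given above. ZEB1, ZEB2 and VIM each have an antisense gene, whose reads may be counted with them. Among genes of this group that passed, adjusted p reached at most 0.00431.

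Stem cell genes moved in both directions. Of 33 tested, 18 were higher and 9 lower, with a median of 0.53 (0.33 with GC offsets). Among the factors, SOX2 (ENSG00000181449, chromosome 3, 181711925 to 181714436), a pluripotency factor, was at 0, 0.0851 and 0.0397 CPM in the adherent libraries, 3 counts in all, and at 31.8, 36.8 and 24.6 CPM in spheres. The ratio was 767 (95% counting interval 262 to 3719). SOX4, a related factor of progenitors, was at 35.4, 35.8 and 36.9 CPM in the adherent and 186, 208 and 157 CPM in the tumor sphere libraries. Against them stood ID2, given above, and ID1, given with the TGF-β and BMP genes. Surface markers diverged. CD24 (ENSG00000272398, chromosome 6, 106969831 to 106975627), a mucin-like adhesion molecule, was at 22.02, 23.2 and 23.7 CPM attached and 248, 283 and 274 CPM in spheres (log2 fold change 3.55 ± 0.08), whereas CD44, the hyaluronan receptor that is used with it to sort stem-like cells, was at 169.6, 162 and 153 CPM in adherent and 101, 104 and 99.1 CPM in sphere libraries (log2 fold change -0.67 ± 0.06). Spheres thus had more CD24 and less CD44 RNA in every library than adherent cells. CXCR4, the receptor of the chemokine CXCL12, was at 1.27, 0.894 and 0.516 CPM in adherent and 8.89, 8.04 and 7.10 CPM in sphere cells. ABCG2, the drug exporter behind the side population, was at 6.84, 5.66 and 6.47 CPM in the adherent and 42.7, 37.7 and 38.9 CPM in the tumor sphere libraries. ALDH1A3, an aldehyde dehydrogenase that makes retinoic acid, went from 253, 255 and 252 CPM to 519.7, 492 and 497 CPM. Adjusted p did not exceed 7.18e-05 in those that passed. SOX2 lies within SOX2-OT on the same strand, and CD44 and ALDH1A3 have antisense partners.

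Most cell cycle genes fell. Of 54 G2/M genes tested, 1 was higher and 46 were lower, 31 of them by more than 2-fold, with a median of -1.03 (-0.91 with GC offsets). Of 42 S phase genes, 0 were higher and 33 lower, 10 by more than 2-fold, with a median of -0.56 (-0.54). Each leave-one-out fit kept these counts within 1.5 times, except that JPT1 was joined by a second G2/M gene called higher without adherent replicate 3. MKI67, the proliferation antigen Ki-67, was at 516, 517 and 544 CPM in the adherent and 217, 168 and 167 CPM in the tumor sphere libraries (log2 fold change -1.51 ± 0.11). ANLN (ENSG00000011426, chromosome 7, 36389821 to 36453791), a scaffold of the cleavage furrow, was at 608, 584 and 569.8 CPM attached and 167, 155 and 152 CPM in spheres (log2 fold change -1.90 ± 0.06). CENPF, of the kinetochore, was at 480.5, 485 and 465 CPM in adherent and 169.9, 162 and 156 CPM in sphere libraries. The 3 genes fell by a similar factor and the replicates stayed close. KIF2C, a mitotic motor, was at 174, 165 and 164 CPM in adherent and 58.4, 63.7 and 50.2 CPM in sphere cells. TOP2A, the topoisomerase that untangles chromosomes, was at 1103, 1076 and 1008 CPM in the adherent and 523, 526 and 457 CPM in the tumor sphere libraries. JPT1, a microtubule-associated protein, was the G2/M gene that rose, at 165, 159 and 189.6 CPM attached and 298, 274 and 309 CPM in spheres. Of the S phase genes CLSPN, of the replication checkpoint, was at 94.8, 108 and 98.1 CPM in adherent and 38.3, 41.4 and 33.1 CPM in sphere libraries. The nuclease EXO1 was at 108, 99.2 and 95.3 CPM in adherent and 42.7, 38.2 and 33.2 CPM in sphere cells. The helicase BLM was at 34.3, 31.5 and 32.3 CPM in the adherent and 14.7, 13.4 and 11.7 CPM in the tumor sphere libraries. The repressor E2F8 was at 32.5, 33.4 and 29.7 CPM attached and 12.1, 9.15 and 8.57 CPM in spheres. MCM4, of the replicative helicase, was at 431, 431 and 418 CPM in adherent and 277, 293 and 253 CPM in sphere libraries. PCNA, the polymerase clamp, did not pass the test at 179, 168 and 168 CPM in adherent and 167, 177 and 155 CPM in sphere cells (adjusted p = 0.575). Adjusted p was at most 0.00561 for the genes named here that passed. In the G1 list 7 of 15 were higher and 4 lower. Of its 9 cyclins, kinases and RB and E2F factors 3 were higher and 4 lower, and of its 6 inhibitors 4 were higher (2 with GC offsets) and the other 2 did not pass. The 3 that rose were CCND3, CDK4 and CCNE1, with log2 fold changes of 0.72, 0.54 and 0.50. CCND1, cyclin D1, was at 318, 352 and 391 CPM in the adherent and 197, 169.5 and 169 CPM in the tumor sphere libraries. Its partner CDK6 was at 31.4, 38.8 and 34.2 CPM attached and 14.95, 13.04 and 15.01 CPM in spheres. The inhibitor CDKN1B (p27) was at 53.9, 50.2 and 48.3 CPM in adherent and 69.1, 75.2 and 60.7 CPM in sphere libraries. CCND1 and CDK6 were lower and CDKN1B higher in every sphere library.

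YAP/TEAD targets, which depend on spreading and tension, were lower as a group. Of 21 tested, 3 were higher and 17 lower, 13 of these by more than 2-fold, with a median of -1.18. ANKRD1 (ENSG00000148677, chromosome 10, 90912096 to 90921087), a cardiac and muscle ankyrin protein, was at 195, 173 and 166 CPM in the adherent and 10.3, 10.98 and 10.2 CPM in the tumor sphere libraries (log2 fold change -4.08 ± 0.09, SE). CCN1 (ENSG00000142871, chromosome 1, 85580761 to 85584589), a matrix signalling protein, was at 719.99, 697 and 711 CPM attached and 75.6, 77.2 and 87.3 CPM in spheres (log2 fold change -3.15 ± 0.08). CCN2, its relative, was at 35.8, 38.9 and 38.7 CPM in adherent and 7.53, 6.44 and 8.06 CPM in sphere libraries (log2 fold change -2.36 ± 0.11). None of these groups overlapped. AXL, a receptor tyrosine kinase, was at 639, 725 and 782 CPM in adherent and 151, 126 and 139.6 CPM in sphere cells. MYOF, a membrane repair protein, was at 1513, 1519.7 and 1522 CPM in the adherent and 932, 801 and 1027 CPM in the tumor sphere libraries. TGFB2, a TGF-β ligand, was at 22.3, 24.6 and 23.2 CPM attached and 2.53, 2.66 and 3.19 CPM in spheres. IGFBP3 and F3 were higher. IGFBP3, which binds insulin-like growth factors, was at 18.6, 16.6 and 16.9 CPM in adherent and 169.5, 207 and 632 CPM in sphere libraries, so that the third sphere library was about 3-fold above the others. F3, tissue factor, was at 8.65, 7.92 and 7.34 CPM in adherent and 16.01, 15.7 and 17.9 CPM in sphere cells. By edgeR's test the genes named here that passed had an adjusted p of at most 7.99e-04.

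The promoters of CCN2 and ANKRD1 are shown for their matches to the TEAD motif GGAATG, searched on both strands. It occurred in 16.7% of the 27305 RefSeq promoters and in 9 of 16 YAP/TEAD targets (56.2%) with an entry. CCN2 has 3 matches, 169, 104 and 95 bases upstream of its start (chr6:131951454-131951549, minus strand, GRCh38.p14). ANKRD1 has matches 220 and 128 bases upstream (chr10:90921202-90921315, minus strand). Capitals mark the matches, which do not show binding in these cells.
CCN2: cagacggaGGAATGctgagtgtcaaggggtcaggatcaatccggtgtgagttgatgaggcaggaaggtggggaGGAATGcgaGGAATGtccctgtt
ANKRD1: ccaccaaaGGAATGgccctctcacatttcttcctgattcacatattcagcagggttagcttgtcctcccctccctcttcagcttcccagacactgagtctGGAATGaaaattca

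Genes of the actin cytoskeleton and matrix did not follow as a block. Of 23 actin and SRF genes tested, 4 were higher and 8 lower (11 lower with GC offsets, which moved the median from 0.08 to -0.25). TPM1, tropomyosin, was at 147, 136 and 132 CPM in the adherent and 52.97, 57.6 and 51.9 CPM in the tumor sphere libraries. FHL2, an adaptor of focal adhesions, was at 31.4, 34.3 and 32.5 CPM attached and 81.2, 81.2 and 80.6 CPM in spheres and so rose. ACTG1, gamma actin, was at 2065, 2391 and 2882 CPM in adherent and 2343, 2057 and 2343 CPM in sphere libraries and did not pass the test (adjusted p = 0.445), although GC offsets gave a call of -0.24. Of 29 integrin and basement membrane genes, 7 were higher and 10 lower (14 lower with GC offsets). LAMA3 (ENSG00000053747, chromosome 18, 23689453 to 23956222), the alpha chain of laminin 332, to which epithelia attach, was at 109, 115 and 123 CPM in adherent and 762, 649 and 753 CPM in sphere cells. COL4A1, a collagen of basement membranes, was at 43.6, 55.7 and 66.2 CPM in the adherent and 20.7, 19.1 and 22.8 CPM in the tumor sphere libraries. ITGB5, which pairs with αv to bind vitronectin, was at 180.2, 188 and 223 CPM attached and 81.1, 68.4 and 73.5 CPM in spheres. ITGB1, the common beta chain, was at 1833, 1662 and 1605 CPM in adherent and 1315, 1271 and 1282 CPM in sphere libraries. LAMA3 thus rose while the integrin and collagen genes named here fell. Of all 18 laminin and collagen genes tested 5 were higher and 6 lower (9 lower with GC offsets). In pericellular proteolysis 8 of 12 genes were higher and 3 lower. PLAUR, the receptor of the urokinase described above, was at 48.4, 52.1 and 58.5 CPM in adherent and 24.1, 24.96 and 23.4 CPM in sphere cells. TIMP1 rose to 176, 189 and 179 CPM from 48.9, 54.9 and 65.3 CPM. SERPINB5 (maspin) rose to 16.2, 16.9 and 16.4 CPM from 2.24, 2.09 and 2.38 CPM. Urokinase and its receptor were thus lower, but the proteases as a group were not. Of 7 proteases tested 4 were higher and 2 lower (3 lower with GC offsets). Among genes of this group that passed, adjusted p reached at most 0.00288.

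Immediate early genes, which growth factors switch on within minutes through MAP kinases and SRF, were mostly higher in spheres. Of 15 tested, 11 were higher, 10 of them by more than 2-fold, and 3 lower, with a median log2 fold change of 1.79 (1.19 with GC offsets). EGR1 (ENSG00000120738, chromosome 5, 138465479 to 138469303), a zinc finger factor, was at 16.03, 22.2 and 25.5 CPM in the adherent and 309.6, 251 and 164 CPM in the tumor sphere libraries (log2 fold change 3.50 ± 0.28). FOS was at 8.54, 12.1 and 14.5 CPM attached and 132, 91.6 and 72.3 CPM in spheres. FOSB was at 0.386, 0.341 and 0.595 CPM in adherent and 11.01, 4.77 and 6.54 CPM in sphere libraries. JUN was at 17.3, 21.2 and 23.1 CPM in adherent and 80.1, 71.2 and 61.9 CPM in sphere cells. The AP-1 subunit FOSL1 went the other way, at 80.1, 104 and 119 CPM in the adherent and 24.3, 21.1 and 27.3 CPM in the tumor sphere libraries. Within the AP-1 family, FOS, FOSB and JUN rose and FOSL1, which needs lasting MAP kinase activity, fell. The sphere replicates of FOSB were more than 2-fold apart. The feedback inhibitors of MAP kinases leaned downward, with 3 of 16 higher and 9 lower (12 lower with GC offsets) and a median of -0.45. DUSP6, a cytoplasmic ERK phosphatase, was at 14.99, 15.5 and 16.2 CPM attached and 59.7, 56.8 and 43.7 CPM in spheres. DUSP4, a nuclear one, was at 0.850, 0.638 and 1.23 CPM in adherent and 8.12, 8.77 and 8.82 CPM in sphere libraries. DUSP5, also nuclear, was at 133, 138 and 138 CPM in adherent and 31.1, 32.1 and 32.5 CPM in sphere cells. PHLDA1 was at 552, 579 and 549.6 CPM in the adherent and 250.04, 252 and 202 CPM in the tumor sphere libraries. The phosphatases named differed, with DUSP4 and DUSP6 higher and DUSP5 lower. Adjusted p did not exceed 1.91e-04 in those that passed.

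In the EGF family EGFR fell while ERBB2 rose. EGFR was at 495, 531 and 521 CPM in the adherent and 224, 194 and 226 CPM in the tumor sphere libraries. ERBB2, its partner without a ligand, was at 60.03, 78.6 and 95.3 CPM attached and 279, 249 and 296 CPM in spheres. The ligand EGF, which the sphere medium also supplies as a protein, was at 1.82, 2.26 and 1.75 CPM in adherent and 9.48, 8.43 and 8.87 CPM in sphere libraries. Amphiregulin (AREG) went from 281, 246 and 237 CPM to 437, 543 and 494 CPM and HBEGF from 29.6, 27.7 and 24.2 CPM to 8.89, 10.98 and 11.8 CPM. The ligands therefore did not move together. ERRFI1, which inhibits the receptor, did not pass the test at 500.4, 449.9 and 432 CPM in adherent and 433, 428 and 457 CPM in sphere cells (adjusted p = 0.446). Adjusted p was at most 1.70e-04 for the genes named here that passed.

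Most Notch genes tested were higher. Of 16 tested, 10 were higher and 2 lower, 9 of these by more than 2-fold upward, with a median of 1.26 that was 0.74 with GC offsets. The median transcript GC content of the list was 59.5%, against 47.8% over all genes tested. The receptor NOTCH3 was at 7.88, 13.4 and 23.7 CPM in the adherent and 153, 97.97 and 130.04 CPM in the tumor sphere libraries, with adherent replicates 3-fold apart. Its log2 fold change was 3.08 (2.46 with GC offsets). NOTCH2 was at 182, 210.02 and 208 CPM attached and 133, 109 and 117 CPM in spheres. The ligand JAG1 was at 1.82, 1.70 and 2.50 CPM in adherent and 14.6, 14.04 and 11.5 CPM in sphere libraries. HES1 (ENSG00000114315, chromosome 3, 194136148 to 194138732), a repressor and direct target, was at 1.93, 2.21 and 2.02 CPM in adherent and 20.9, 24.2 and 16.5 CPM in sphere cells (log2 fold change 3.32 ± 0.17). NRARP, a feedback target, was at 2.05, 2.38 and 2.70 CPM in the adherent and 7.83, 7.99 and 6.49 CPM in the tumor sphere libraries. All but NOTCH2 of the genes named rose, with a highest adjusted p of 7.16e-04. The promoter of HES1 is shown for its pair of matches to the RBPJ motif TGGGAA, 84 and 70 bases upstream of the start (chr3:194136056-194136091, plus strand, GRCh38.p14). On both strands together this motif occurred in 28.1% of all RefSeq promoters and in 6 of 15 Notch genes (40.0%). Capitals mark the matches, which do not show binding.
HES1: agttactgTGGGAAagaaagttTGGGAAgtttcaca

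Wnt, TGF-β and BMP genes moved in both directions. Of 14 Wnt targets tested, 8 were higher and 3 lower, and 1 was lower without adherent replicate 2 or sphere replicate 3. RNF43, a ligase that removes Wnt receptors, was at 0.695, 0.809 and 0.516 CPM in the adherent and 6.18, 5.38 and 4.51 CPM in the tumor sphere libraries. CTNNB1, β-catenin, which serves both the pathway and adherens junctions, was at 520.4, 500.2 and 472 CPM attached and 903, 926 and 840.1 CPM in spheres. Of 24 TGF-β and BMP genes, 8 were higher and 9 lower. ID1, a direct BMP target, was at 51.7, 56.5 and 77.8 CPM in adherent and 8.30, 6.16 and 7.20 CPM in sphere libraries, and so fell with ID2. GDF15, a distant member of the ligand family that stress induces, was at 0.116, 0.170 and 0.238 CPM in adherent and 25.5, 16.98 and 14.6 CPM in sphere cells, a log2 fold change of 6.72 (5.998 with GC offsets). The receptor TGFBR2 was at 163, 161 and 158 CPM in the adherent and 268, 244 and 245 CPM in the tumor sphere libraries. ID1 and GDF15 had the largest changes of the genes named here, in opposite directions. By edgeR's test the genes named here that passed had an adjusted p of at most 6.63e-05.

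Interferon-stimulated genes, which cells transcribe after sensing viral or stray nucleic acid or after interferon itself, were higher. Of 20 tested, 17 were higher, 13 of them by more than 2-fold, and the other 3 did not pass, with a median of 1.83 (1.86 with GC offsets). OAS1 (ENSG00000089127, chromosome 12, 112905856 to 112933219), a synthetase that senses double-stranded RNA, was at 0.116, 0.128 and 0.159 CPM in the adherent and 12.5, 12.3 and 15.2 CPM in the tumor sphere libraries (log2 fold change 6.57 ± 0.21, SE). Its relative OASL was at 3.05, 2.47 and 3.14 CPM attached and 15.7, 16.2 and 17.3 CPM in spheres. IFI44 was at 0.579, 0.681 and 0.595 CPM in adherent and 4.65, 5.44 and 6.24 CPM in sphere libraries. IFI6 was at 10.4, 9.71 and 11.3 CPM in adherent and 38.5, 49.3 and 60.6 CPM in sphere cells. ISG15, a ubiquitin-like modifier, was at 1.47, 3.15 and 6.67 CPM in the adherent and 22.1, 17.4 and 23.9 CPM in the tumor sphere libraries, and its adherent replicates were more than 4-fold apart. Its log2 fold change was 2.49 (1.85 with GC offsets). B2M, the light chain of class I antigen presentation, went from 65.9, 56.7 and 49.5 CPM to 90.1, 97.2 and 97.3 CPM. Among genes of this group that passed, adjusted p reached at most 0.00414.

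The promoters of ISG15 and IFI6 are shown for the interferon-stimulated response element, searched as GAAANNGAA on both strands. It occurred in 9.86% of all RefSeq promoters and in 13 of 19 interferon genes (68.4%) with an entry. ISG15 has 3 overlapping matches that begin 113, 107 and 101 bases upstream of the start (chr1:1013376-1013412, plus strand, GRCh38.p14). IFI6 has 3 separate ones at 156, 115 and 93 bases (chr1:27672269-27672356, minus strand). Capitals mark the matches, which do not show binding.
ISG15: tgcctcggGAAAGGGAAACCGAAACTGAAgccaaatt
IFI6: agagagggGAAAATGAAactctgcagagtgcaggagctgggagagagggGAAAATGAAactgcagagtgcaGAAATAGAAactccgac

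Cytokine and NF-κB genes did not follow the interferon genes. Of 24 tested, 5 were higher and 11 lower. IL18, a cytokine activated by inflammasomes, was at 136, 119 and 108 CPM in the adherent and 26.4, 32.7 and 30.9 CPM in the tumor sphere libraries. CXCL5, which attracts neutrophils, was at 26.5, 25.4 and 24.8 CPM attached and 8.77, 8.27 and 8.31 CPM in spheres. BIRC3, an inhibitor of apoptosis and NF-κB target, was at 129, 122 and 114 CPM in adherent and 54.3, 47.8 and 50.1 CPM in sphere libraries. The adhesion receptor ICAM1 rose, from 255, 261 and 293 CPM to 455, 431 and 472 CPM. Adjusted p did not exceed 9.37e-05 in those that passed.

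Genes that FOXO factors and insulin signalling control were mostly higher. Of 17 tested, 10 were higher, 8 by more than 2-fold, and 3 lower, with a median of 0.93. TXNIP (ENSG00000265972, chromosome 1, 145992435 to 145996579), which restrains glucose uptake and thioredoxin, was at 4.91, 4.04 and 3.22 CPM in the adherent and 68.7, 72.4 and 81.6 CPM in the tumor sphere libraries (log2 fold change 4.19 ± 0.16, SE). IGFBP2, a carrier of insulin-like growth factors, was at 3.71, 5.62 and 8.57 CPM attached and 97.6, 93.9 and 93.8 CPM in spheres. BCL6, a repressor and FOXO target, was at 20.5, 21.7 and 22.1 CPM in adherent and 103, 105 and 100.4 CPM in sphere libraries. In all 3 the groups were far apart. IRS1, the adaptor of the insulin receptor, was at 9.85, 12.8 and 13.8 CPM in adherent and 62.9, 47.7 and 59.1 CPM in sphere cells. The receptor IGF1R was at 180.1, 219 and 219.9 CPM in the adherent and 426, 359.6 and 395 CPM in the tumor sphere libraries. The sphere medium contains insulin, and the highest adjusted p was 1.39e-04.

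Metabolic lists differed in direction. Of 22 glycolysis genes tested 6 were higher and 7 lower with a median of -0.13. ENO1, enolase, was at 3973, 4031 and 4283 CPM in the adherent and 2089, 2089.9 and 2371 CPM in the tumor sphere libraries. Of 12 fatty acid synthesis genes 0 were higher and 6 lower, 11 lower with GC offsets and 2 higher without adherent replicate 3. SCD, the desaturase, was at 1736, 1702 and 1664 CPM attached and 1013, 995 and 918 CPM in spheres. The elongase ELOVL6 was at 196, 184 and 173 CPM in adherent and 93.7, 92.5 and 83.96 CPM in sphere libraries. Both lay lower in every sphere library. Of 24 cholesterol genes, 5 were higher and 6 lower, 10 lower with GC offsets, and the number higher fell to 2 without adherent replicate 2, sphere replicate 1 or sphere replicate 3 and to 3 without sphere replicate 2. TM7SF2, a sterol reductase, was at 34.5, 39.5 and 56.96 CPM in adherent and 121, 101 and 122 CPM in sphere cells and so rose, by 1.39 on the log2 scale (0.64 with GC offsets). In mitochondria, 20 of 73 nuclear respiratory chain genes were higher and 7 lower (29 higher with GC offsets). Without adherent replicate 2 or sphere replicate 3 the number higher was 10, and without the latter the number lower was 3. Of 13 transcripts of mitochondrial DNA, 5 were lower, 3 without sphere replicate 1 or sphere replicate 3, and 1 was higher without sphere replicate 1. MT-ND4, a subunit of complex I, was at 16930.5, 12970.2 and 14101 CPM in the adherent and 10469, 10718 and 8884 CPM in the tumor sphere libraries. Mitochondrial DNA gave 5.75% to 7.37% of counts in adherent and 4.94% to 5.82% in sphere libraries. Regulators of fuel choice moved in opposite directions. PDK4, which holds back pyruvate oxidation, was at 9.54, 7.87 and 7.62 CPM attached and 26.3, 25.4 and 19.7 CPM in spheres. CPT1A, which admits fatty acids to mitochondria, was at 72.2, 85.00 and 80.02 CPM in adherent and 37.96, 36.2 and 32.1 CPM in sphere libraries. Adjusted p was at most 0.0101 for the genes named here that passed.

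Hypoxia targets changed in both directions, with 6 of 19 higher (9 with GC offsets) and 5 lower and a median of 0.08. Of 4 factors of the pathway 2 were higher and 2 lower. EPAS1 (ENSG00000116016, chromosome 2, 46293667 to 46386697), which encodes HIF-2α, was at 40.98, 45.8 and 44.4 CPM in the adherent and 261, 230.3 and 225 CPM in the tumor sphere libraries (log2 fold change 2.45 ± 0.08). HIF1A, for HIF-1α, whose amount is mostly set by protein breakdown, went from 539.6, 502 and 484 CPM to 745, 693 and 675 CPM. Of their targets ADM, the peptide adrenomedullin, was at 7.38, 7.87 and 9.49 CPM attached and 36.3, 33.1 and 27.3 CPM in spheres. STC2, a secreted glycoprotein, was at 220.03, 239.6 and 259 CPM in adherent and 86.1, 80.9 and 86.9 CPM in sphere libraries. LOX, a collagen cross-linker, was at 8.61, 9.58 and 8.57 CPM in adherent and 1.41, 2.22 and 4.51 CPM in sphere cells. One of these targets therefore rose and the other 2 fell, and the highest adjusted p was 0.00619.

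Stress genes did not rise together. Of 6 metallothioneins, which bind zinc and copper, 4 were lower, each by more than 2-fold, and the other 2 did not pass. MT1E was at 142, 171 and 208 CPM in the adherent and 36.1, 45.05 and 44.01 CPM in the tumor sphere libraries. MT1X was at 10.2, 13.1 and 18.02 CPM attached and 5.77, 5.33 and 8.11 CPM in spheres, though copies of this family share sequence. Of 22 NRF2 targets, 14 were higher and 6 lower, with a median of 0.56. AKR1C3, a reductase of steroids with close relatives, was at 3.52, 2.81 and 2.46 CPM in adherent and 14.6, 18.9 and 18.6 CPM in sphere libraries. EPHX1, an epoxide hydrolase, was at 56.4, 58.8 and 61.2 CPM in adherent and 164, 164 and 164 CPM in sphere cells. UGDH, which makes UDP-glucuronate, was at 299, 292 and 277 CPM in the adherent and 794, 805 and 778 CPM in the tumor sphere libraries. These detoxifying enzymes rose in every sphere library. TXNRD1, thioredoxin reductase, was at 5389, 4980.1 and 4833 CPM attached and 3735, 3673 and 3909 CPM in spheres. SLC7A11, the cystine importer, was at 300.3, 331 and 291 CPM in adherent and 146, 149 and 135 CPM in sphere libraries. Both fell, so the list held changes in both directions. Of 26 ATF4 genes 4 were higher and 11 lower (6 and 15 with GC offsets). NUPR1, a chromatin protein, was at 0.193, 0.553 and 1.07 CPM in adherent and 4.89, 5.44 and 4.72 CPM in sphere cells. SLC38A2, an amino acid importer, was at 1764, 1742 and 1698 CPM in the adherent and 1046, 1055 and 846 CPM in the tumor sphere libraries. Of 21 genes of the unfolded protein response 7 were higher and 7 lower, the latter 4, 4 and 3 without adherent replicate 2, sphere replicate 1 and sphere replicate 3. EDEM1, which sends misfolded glycoproteins to breakdown, was at 159, 174 and 162 CPM attached and 362, 366 and 353 CPM in spheres. HSP90B1, the chaperone GRP94, was at 2435, 2210.2 and 2058 CPM in adherent and 1591, 1665 and 1552 CPM in sphere libraries. Of 14 heat shock genes 7 were higher and 1 lower, 2 without adherent replicate 3. HSP90AB1, the constitutive HSP90 and the gene that fell, was at 3858, 3414 and 3318 CPM in adherent and 2694, 2841 and 2672 CPM in sphere cells. By edgeR's test the genes named here that passed had an adjusted p of at most 0.00854.

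Genes of lysosomes and autophagy leaned upward, with 17 of 31 higher and 3 lower. Without sphere replicate 1 or sphere replicate 3 the counts were 11 and 1, and without adherent replicate 3 the number lower was 6. NPC2, which carries cholesterol out of lysosomes, was at 62.2, 55.3 and 54.1 CPM in the adherent and 307, 367 and 275 CPM in the tumor sphere libraries. Cathepsin A (CTSA) was at 113, 118 and 132 CPM attached and 282, 281 and 301 CPM in spheres. Of nuclear receptor genes, NR3C1, the glucocorticoid receptor, went from 132, 132 and 125 CPM to 289, 285 and 281 CPM. GADD45B, a stress and hormone target, was at 43.6, 47.5 and 56.7 CPM in adherent and 9.36, 8.93 and 8.97 CPM in sphere libraries. Of 10 retinoid genes tested 6 were higher and 1, TGM2, was lower (3 lower with GC offsets), with a median of 0.70. CRABP2, which carries retinoic acid to its receptor, was at 21.7, 22.3 and 24.2 CPM in adherent and 103, 122 and 128 CPM in sphere cells. TGM2, transglutaminase, was at 444, 534 and 640.1 CPM in the adherent and 233, 195 and 202 CPM in the tumor sphere libraries. Across these genes the highest adjusted p was 7.21e-06 for the lysosomal and 2.22e-04 for the other genes.

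The shSigma libraries give the same contrast of cultures in separate samples. The genes counted next were called from the shCtrl libraries alone, whereas the lists and named genes were chosen with results of the whole series known. Of the 1496 genes higher by more than 2-fold in shCtrl spheres, 1476 could be estimated there and 1235 (83.7%) had a positive log2 fold change, against 48.6% of all genes tested. Of the 684 lower genes, 683 could be estimated and 601 (88.0%) were negative, against 51.3% of all genes tested. Their medians in shSigma cells were 0.77 and -0.63. The corresponding medians in shCtrl cells, 1.62 and -1.34, are set by the choice of the genes. The difference between the lines was tested as an interaction term in a fit of all 12 libraries, where 1210 of 14175 genes (8.54%) passed both thresholds, given as the effect in shSigma minus that in shCtrl cells. The shCtrl libraries enter this difference as well, so it is given for single genes and not counted over those called above.

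**Figure D2:**
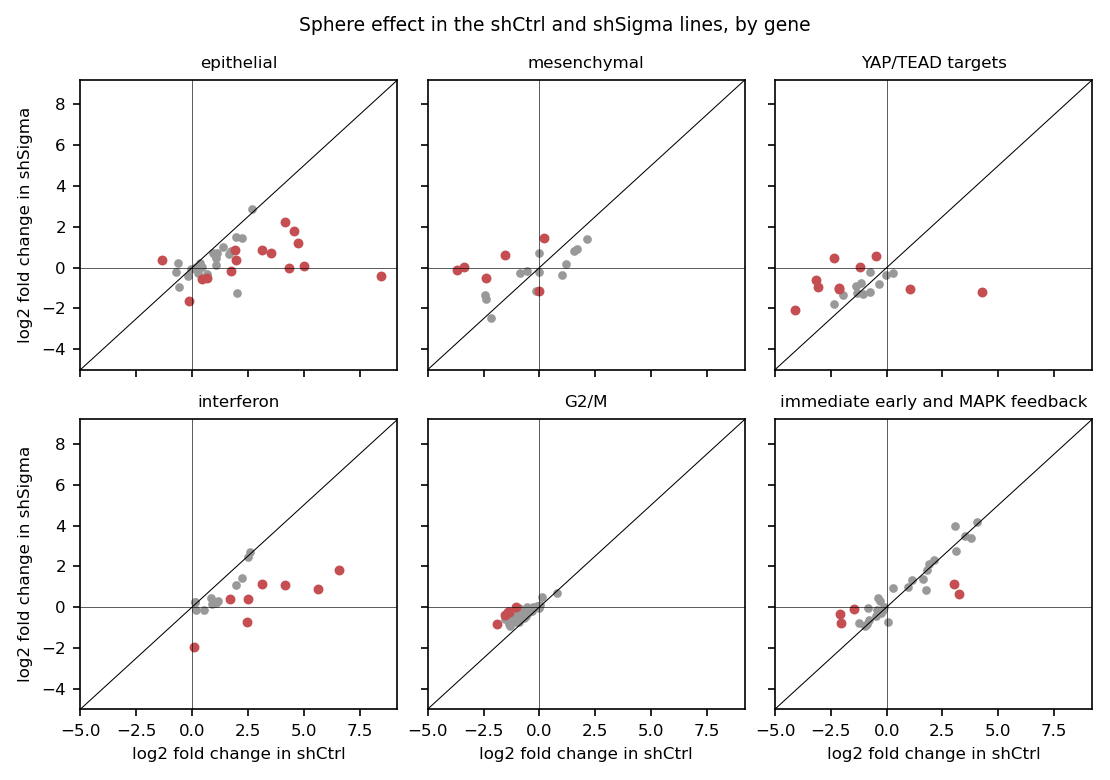
Log2 fold change of spheres against adherent culture in shSigma cells against that in shCtrl cells, 1 point per gene tested. Genes whose difference passed the interaction test by more than 2-fold are red. CDH1 lies at 4.76 in shCtrl and 1.21 in shSigma cells, and EGR1 at 3.50 and 3.47.

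The epithelial and mesenchymal genes named here moved less in shSigma cells (CPM as mean ± SD, n = 3). CDH1 was at 12.01 ± 1.72 CPM in adherent and 27.8 ± 3.34 CPM in tumor sphere shSigma cells, with a difference of -3.55 ± 0.15 (SE) on the log2 scale (adjusted p = 1.73e-09). GRHL2 was at 0.0490 CPM in adherent and 0.0521 CPM in tumor sphere shSigma cells. These are traces so low that an SD would not measure the spread of replicates, and none is given. Its difference of -4.93 ± 0.73 (adjusted p = 0.00330) rests on them. ZEB1 was at 31.2 ± 4.99 CPM in adherent and 29.1 ± 1.42 CPM in tumor sphere shSigma cells, with a difference of 3.57 ± 0.19 (adjusted p = 2.84e-08). VIM was at 1104 ± 44.7 CPM in adherent and 775 ± 31.03 CPM in tumor sphere shSigma cells, with a difference of 1.87 ± 0.11. CD24, which was low in adherent shCtrl cells alone, was at 495 ± 32.6 CPM in adherent and 623 ± 20.9 CPM in tumor sphere shSigma cells. Among the YAP/TEAD targets CCN2 was at 24.2 ± 1.74 CPM in adherent and 33.1 ± 4.14 CPM in tumor sphere shSigma cells, a sphere effect of 0.46 against -2.36. CCN2 did not stand for its list, whose median sphere effect was -0.95 in shSigma and -1.18 in shCtrl cells. MKI67 was at 354 ± 39.9 CPM in adherent and 244 ± 23.6 CPM in tumor sphere shSigma cells, with a difference of 0.97 ± 0.15 (adjusted p = 3.94e-04).

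Several genes passed the test in opposite directions in the 2 lines, and not all are given in full. KRT18, NR3C1 and BCL6 were higher in shCtrl and lower in shSigma spheres, and CLDN1, CCN2 and CLSPN the reverse. By edgeR's test the adjusted p of these 6 in shSigma cells was at most 0.0426. EPAS1 rose in shCtrl spheres and was at 169 ± 8.23 CPM in adherent and 104 ± 3.02 CPM in tumor sphere shSigma cells, a log2 sphere effect of -0.69 there. FHL2 was at 66.3 ± 1.48 CPM in adherent and 35.7 ± 0.506 CPM in tumor sphere shSigma cells (-0.89) and F3 at 13.9 ± 1.64 CPM in adherent and 6.83 ± 0.328 CPM in tumor sphere shSigma cells (-1.02), so that both fell. CPT1A was at 29.8 ± 0.816 CPM in adherent and 57.2 ± 1.64 CPM in tumor sphere shSigma cells (0.94) and CXCL5 at 9.67 ± 0.402 CPM in adherent and 14.3 ± 0.600 CPM in tumor sphere shSigma cells (0.57), so that both rose where they had fallen in shCtrl cells. The adjusted p of the effects of EPAS1, FHL2, F3, CPT1A and CXCL5 in shSigma cells was at most 1.30e-04. The differences between the lines were -3.14 ± 0.10 for EPAS1, -2.20 ± 0.08 for FHL2, -2.08 ± 0.16 for F3, 2.10 ± 0.11 for CPT1A and 2.16 ± 0.12 for CXCL5, with a highest adjusted p of 6.41e-07, that of F3.

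For EGR1, JUN, SOX4, ID1 and CLDN2 the difference between the lines did not pass the test. EGR1 was at 13.7 ± 2.88 CPM in adherent and 152 ± 18.2 CPM in tumor sphere shSigma cells, with a difference of -0.03 ± 0.37 (adjusted p = 0.963), and JUN at 26.2 ± 1.72 CPM in adherent and 92.2 ± 14.2 CPM in tumor sphere shSigma cells, with 0.02 ± 0.19. SOX4 was at 29.4 ± 0.929 CPM in adherent and 128 ± 7.14 CPM in tumor sphere shSigma cells, with a difference of -0.24 ± 0.13 (adjusted p = 0.186). ID1 was at 95.4 ± 26.6 CPM in adherent and 8.87 ± 0.911 CPM in tumor sphere shSigma cells, with -0.32 ± 0.34. SFTPB, whose difference did pass, was at 2.31 ± 0.347 CPM in adherent and 552 ± 51.1 CPM in tumor sphere shSigma cells and so reached the level of shCtrl spheres from a higher start, with a difference of -3.13 ± 0.34 (adjusted p = 2.15e-05). CLDN2 was at 0.652 ± 0.0617 CPM in adherent and 205 ± 12.4 CPM in tumor sphere shSigma cells, far above the level in shCtrl spheres, but its difference in the sphere effect did not pass the test (adjusted p = 0.185), with 0 counts in adherent shCtrl cells.

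**Figure D3:**
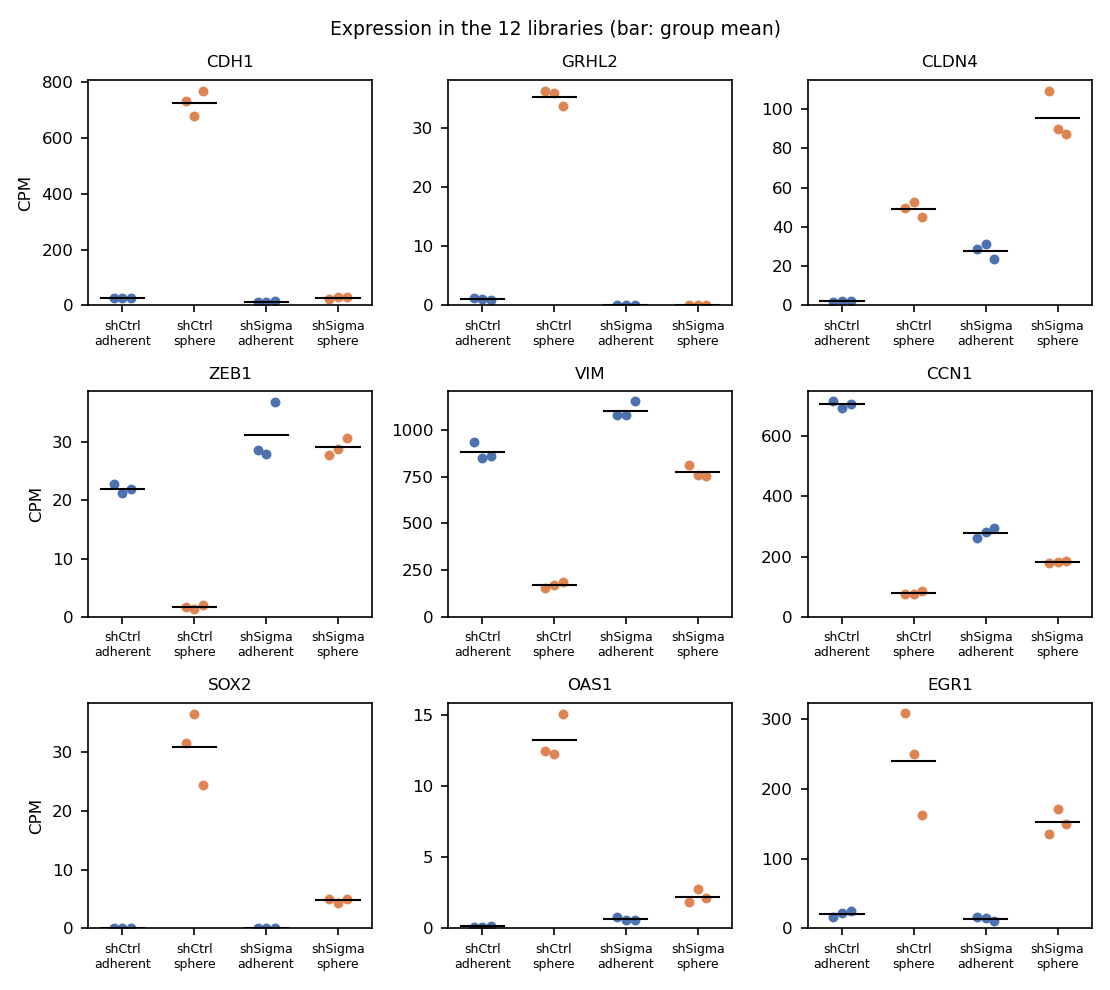
CPM of selected genes in each of the 12 libraries on a linear axis from 0, by hairpin and culture, with 1 point per library and a bar at the group mean. CDH1 and GRHL2 are high only in shCtrl spheres among the 4 groups, ZEB1 is low only there, and EGR1 is higher in the spheres of both lines.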

How the data were processed

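From total RNA of 3 independent replicates per group the authors prepared strand-specific libraries, read 1 end of each fragment on a NextSeq500, aligned the reads with STAR (2.6.1c in the submitters' processing notes) to GRCh38.p12 and deposited raw counts per Ensembl gene. The annotation and the use of strand are not given in the sources used here. All 28747 genes were read, symbols came from GENCODE 44 for 25452, and no column was left out.

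CPM, log2 fold changes (prior count 0.125) and p-values were computed here from the deposited counts with edgeR 4.0.16 in R 4.3.3, with filterByExpr at a minimum count of 10, TMM, robust quasi-likelihood tests (two-sided) and p-values adjusted after Benjamini-Hochberg over every gene tested. Errors of CPM are SD and those of log2 values are SE. The SE is approximate, taken as the absolute log2 value divided by the square root of the F statistic of its test. The biological coefficient of variation was 11.8%. An exact permutation test of 3 against 3 libraries cannot go below p = 0.1 and was not used. Floors and intervals (exact, 95%) cover counting error only. Means in the comparison with shSigma cells are from the fit of all 12 libraries. GC offsets are a lowess curve (span 0.3) of log counts on transcript GC content per library. The comparison, gene lists and named genes were chosen with earlier results of these data known. The rule took the 10 highest and 10 lowest log2 fold changes at 5 CPM or more, the 5 largest gains and losses in CPM among genes past the 2-fold threshold, and up to 4 called members and the most abundant member of each list. ABCG2, ALDH1A3, AREG, AXL, CCN2, CCND3, CCNE1, CD44, CDH3, CDK4, CDKN1B, CLDN1, CLDN7, COL6A1, CRB3, DUSP5, DUSP6, ELF3, ESRP1, F3, FOSL1, IFI6, JPT1, JUN, JUP, KLF5, KRT18, PCNA, SNAI1, SNAI2, SOX4, ST14, TWIST2 and ZEB2 fall outside it and were chosen after their values were seen, and not all that it allows are named. The alternatives were DESeq2 1.42.0, other scalings and filters, other thresholds, the replicate block, all 12 libraries in 1 fit, and each library left out. The procedure was tested on simulated counts. The gene targeted by the shSigma hairpin is not reported here.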

Additional observations from a re-analysis of the deposited data

Results flagged for a closer look

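Of the 165 genes examined by name, 83 had a sphere effect that differed between shSigma and shCtrl cells by more than 2-fold. Their adjusted p was under 0.05, by the interaction of hairpin and culture in edgeR's quasi-likelihood test. Over all genes tested the same thresholds were passed by 1210 of 14175 (8.54%). The values below are the log2 effect in shSigma minus that in shCtrl cells. A negative value stands for a smaller rise or a larger fall in shSigma cells, or for a fall where shCtrl cells showed a rise. The genes were chosen for their effect in shCtrl cells, so the count of them is not read.

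Among genes nearly silent in adherent shCtrl cells the difference was -8.43 for PLN, -3.13 for SFTPB, -6.48 for CEACAM6 and -4.71 for FGG. Among those lost in spheres it was 2.99 for MARCHF4, 2.14 for ADAM12, 2.23 for NAV3, 2.62 for SERPINB7, 1.52 for CAV1, 1.37 for SFTA1P and 6.26 for CA8. CA8 had 0 counts in adherent and 0.0345 CPM in tumor sphere shSigma cells, so its value rests on traces and its size is not known. Among abundant transcripts it was 1.07 for CRIM1, -1.37 for MALAT1 and -1.26 for TRAM1. FGL1, CEACAM5, NTS, SOX21 and AGR2 did not pass this test, which could not decide with 1 or 0 counts in adherent shCtrl cells. In tumor sphere shSigma cells they were at 8.40, 0.0698, 0.103, 0.104 and 0.0177 CPM. The means in shCtrl spheres were 162, 34.1, 24.3, 12.9 and 6.19 CPM. CLDN2, also at 0 counts in adherent shCtrl cells, was higher in shSigma spheres, as given above.

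Epithelial genes differed by -3.55 for CDH1, -4.93 for GRHL2, -2.78 for CLDN4, -4.39 for PRSS8, -2.80 for CDH3, -1.93 for ST14, -2.27 for ELF3 and 1.71 for CLDN1. Keratins and S100 genes differed by -1.02 for KRT8, -1.08 for KRT18, -1.17 for KRT7, -1.82 for KRT19, -1.50 for KRT15, -3.25 for S100A14 and -1.34 for S100A2. On the mesenchymal side the differences were 3.57 for ZEB1, 1.87 for VIM and 3.39 for ZEB2, and for stem cell genes -3.22 for CD24, -1.29 for CXCR4 and -1.33 for ABCG2.

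Cell cycle genes differed by 1.08 for ANLN, 1.14 for CENPF, 1.13 for E2F8, 1.69 for CLSPN, 1.09 for EXO1 and 1.15 for BLM. YAP/TEAD targets differed by 2.00 for ANKRD1, 2.53 for CCN1, 2.82 for CCN2, 2.10 for TGFB2, -5.46 for IGFBP3 and -2.08 for F3. In the cytoskeleton and matrix the values were 1.46 for ITGB5, 1.13 for COL4A1, -1.50 for TIMP1, -2.81 for SERPINB5 and -2.20 for FHL2.

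Of signalling genes, DUSP4 differed by -2.57, FOSL1 by 1.28, DUSP5 by 1.76, EGF by -2.45, ERBB2 by -1.32, ERRFI1 by -1.09, HES1 by -2.14, NOTCH3 by -1.66, JAG1 by -2.14 and GDF15 by -3.42. Interferon and cytokine genes differed by -4.78 for OAS1, -1.99 for IFI44, -2.10 for OASL, 1.17 for IL18, 2.16 for CXCL5 and 1.39 for BIRC3. The FOXO targets TXNIP and BCL6 differed by -3.97 and -2.54, and the metabolic genes PDK4 and CPT1A by -1.13 and 2.10. Hypoxia genes differed by -3.14 for EPAS1, 1.49 for STC2 and -2.25 for LOX, and stress genes by -1.02 for UGDH, -1.44 for NUPR1 and 1.01 for SLC7A11. Of the remaining genes NPC2 differed by -1.48, NR3C1 by -1.39, GADD45B by 2.02, CRABP2 by -1.54 and TGM2 by 1.06.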

How the results depend on the processing

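The culture comparison called 2180 genes past both thresholds and the interaction 1210. glmTreat against a log2 fold change of 1 left 1037 and 390, and dropping the fold threshold gave 7404 and 4024. The other alternatives stayed within 1.5 times, and leaving out 1 library gave 2019 to 2625 and 1111 to 1306. The replicate block gave 2194 and 1134. Whether the labels' numbers pair the samples is not stated. Deviations of same-numbered adherent and sphere libraries had correlations of -0.48, -0.07 and 0.26. These cannot decide it, since libraries with different numbers were not compared. Higher genes made up 68.6% of calls with TMM, 73.4% with total counts only, which moved the median of all genes to 0.10, and 61.0% with GC offsets. Of 165 named genes, 162 kept their direction and side of the threshold in each of the 15 alternatives that tested them (141 were tested with 10 counts in every library), 1 of which, GC offsets, was chosen after seeing the data. The exceptions are KRT18, KRT7 and ACTG1. Of 88 counts of list members, 56 stayed within 1.5 times in each. Genes with a few counts in a group are known only as bounds or with wide intervals. Members of near-identical families and overlapping genes rest on counting rules not stated, and culture, medium and preparation cannot be told apart.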
